A study of Arabidopsis thaliana with 14 samples.

Results

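The chalazal endosperm and the micropylar endosperm are the opposite poles of the tissue that nourishes the Arabidopsis thaliana embryo, and their transcripts were compared on 2 arrays of each. All 22746 probe sets other than controls on the ATH1 array were taken, which are all those of the 14-array series. Of these, 17336 passed the filter on low signal and were tested. The 2 chalazal arrays, the 2 micropylar arrays and every other array came from unmutated seeds of the accession Ws-0 at the pre-globular stage. No group carried a transgene or a treatment, and plants had grown under continuous light. Each region was cut by laser from sections of fixed, paraffin-embedded siliques, and a few nanograms of total RNA were amplified before hybridization. The labels call the 2 arrays of a group biological replicates without naming the plants behind them, so p-values measure the spread between these samples. The other groups were the peripheral endosperm, the embryo proper, the chalazal and the general seed coat and sections of whole seeds, with 2 arrays each.

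The endosperm begins as a syncytium in which nuclei divide without walls between them. Walls form first at the micropylar pole, around the embryo, while the chalazal endosperm stays a multinucleate cyst for longest and lies against the maternal tissue where the vascular supply of the seed ends. Type I MADS-box transcription factors, several of which act mainly in the endosperm, are among its best known regulators. A region cut by laser is a bulk sample, so fewer cells of a type and less RNA per cell cannot be told apart in any difference given here.

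The poles differed in 4083 probe sets (23.6% of those tested). At an adjusted p under 0.05 in limma and a difference of at least 2-fold, 1781 probe sets were higher in the chalazal endosperm (10.3% of those tested) and 2302 were lower (13.3%). Differences are in log2(signal + 35.9), where 35.9 is the 25th percentile of all values, so they understate the change of dim genes. The median difference was 2.32 among the higher and -2.08 among the lower probe sets, against -0.14 over all those tested. At least 4-fold differences numbered 1149 higher and 1249 lower, and at least 16-fold ones 324 higher and 152 lower. The arrays of the 2 poles did not overlap in 54.4% of all tested probe sets, and 13 of the called ones overlapped.

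Replicates of the poles were looser than those of the other regions. The replicate SD was 0.783 in the chalazal and 0.758 in the micropylar endosperm in log2 units, while the other 5 groups lay between 0.519 and 0.569. The model over 14 arrays therefore lends the poles a smaller spread than they show. In a second limma fit on the 4 pole arrays alone, 936 of the higher (5.4% of those tested) and 905 of the lower probe sets (5.22%) were called again, and genes called in both fits are named first throughout. Per named gene, the first fit called 988 of 9765 higher (10.1%) and 1254 lower (12.8%), and both fits called 515 higher (5.27%) and 467 lower (4.78%).

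**Figure D1:**
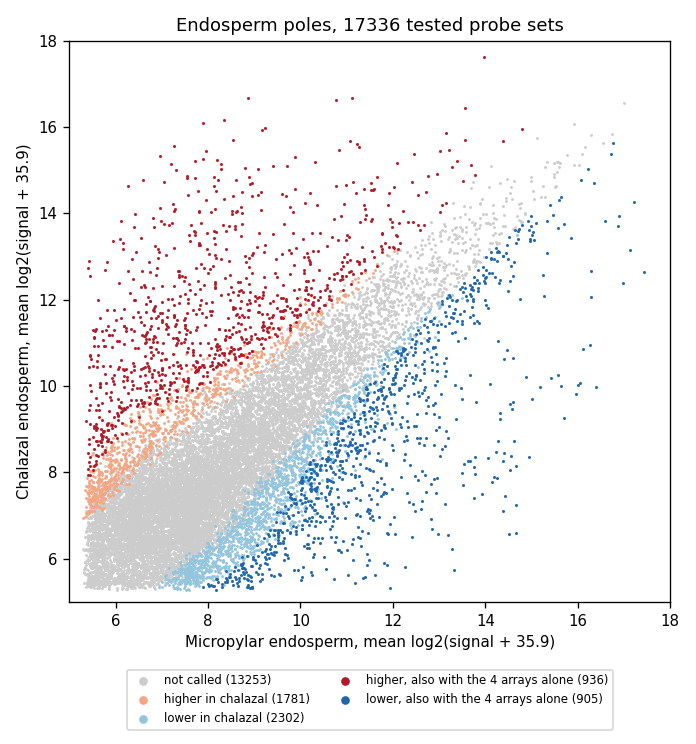
Each point is 1 of 17336 tested probe sets, with the mean log2(signal + 35.9) of 2 chalazal arrays on the vertical and of 2 micropylar arrays on the horizontal axis. Red and blue points were called in both fits (936 higher and 905 lower in the chalazal endosperm), and pale points were called with all 14 arrays.

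Marker genes were used to check the regions against their labels. Of the 5 listed markers of chalazal endosperm, the loci AT5G26630 and AT3G05860 could be tested, and both were higher in the chalazal endosperm (values below). They are also counted among the type I MADS-box genes below. The lists were chosen with earlier results of these data known, so these loci are not an independent check of the label. The markers listed for micropylar endosperm had no named probe set, so that label could not be checked in this way. Of 22 seed coat markers 5 were tested, and their summed signal was 5067 to 5173 in the chalazal and 2027 to 2956 in the micropylar endosperm, against 17153 to 19617 in the chalazal and 39268 to 39884 in the general seed coat. One of the 5 was called, DFR, which encodes a flavonoid pathway reductase and was 1.23 ± 0.42 higher (SE, adjusted p = 0.0366), though not in the fit on 4 arrays (adjusted p = 0.072). It also lost the call without micropylar replicate 2 (difference 0.91, adjusted p = 0.233), chalazal replicate 1 (adjusted p = 0.0738) or chalazal replicate 2 (adjusted p = 0.12). The 3 tested of 13 vascular and chalazal seed coat markers summed to 271 to 310 in the chalazal and 316 to 436 in the micropylar endosperm, against 28903 to 30477 in the chalazal seed coat. The 2 tested of 17 embryo markers summed to 88.5 to 217 in the chalazal and 14.8 to 238 in the micropylar endosperm, against 684 to 799 in the embryo proper. The part of seed coat, vascular or embryo tissue in the differences was not tested.

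The genes that rose most in the chalazal endosperm were mostly dim at the micropylar pole. RALFL28 (AT4G11510), a member of the rapid alkalinization factor family of secreted signalling peptides, had a signal of 25988 and 25090 in chalazal arrays, against 50.7 and 33.3 in micropylar arrays. Its difference of 8.37 ± 0.56 (SE, adjusted p = 6.26e-09) led all genes, and none of the 4 other dissected regions exceeded 410.3 on any array. SBT4.13 (AT5G59120), a subtilase of the family of secreted serine proteases, had 30869 and 42289 in chalazal arrays, against 274 and 34.2 in micropylar arrays. It was 7.94 ± 0.67 higher (adjusted p = 4.75e-08), with no overlap and with peripheral endosperm values of 3.35 and 7.56. Among the 12 genes with the largest increases, 10 have a locus number as their only name in the files. The brightest of these, AT3G03410, reached 96472 and 114156 in chalazal arrays, against 1411 and 116 in micropylar arrays (7.81 ± 0.79, adjusted p = 3.87e-07). AT5G38195 had 66505 and 73444 in chalazal arrays, against 818 and 29.8 in micropylar arrays. AT3G10590, another of the 12, had 30983 and 23835 in chalazal endosperm, against 372 and 7.55 in micropylar endosperm, and 13879 and 13970 in the chalazal seed coat.

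A single micropylar array carried most of the residual signal of these genes. Micropylar replicate 1 was above replicate 2 for 10 of the 12, with medians of 323 and 31.6, while over all tested probe sets it was above in 47.9%. Both micropylar arrays stayed far below the chalazal ones for each of the 12.

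The 12 largest decreases ran from -6.39 to -8.07, while the 12 largest increases ran from 7.37 to 8.37. AT1G09550 had a signal of 135 and 18.1 in chalazal arrays, against 25545 and 26221 in micropylar arrays, a difference of -8.07 ± 0.58 (adjusted p = 8.88e-09). AT5G14860 had 142 and 95.2 in chalazal arrays, against 26740 and 25388 in micropylar arrays (-7.42 ± 0.45, adjusted p = 2.19e-09). The brightest of the 12 was LCR59 (AT4G30070), which encodes a small cysteine-rich, defensin-like peptide. LCR59 had 1096 and 856 in chalazal arrays, against 83590 and 87753 in micropylar arrays (-6.41 ± 0.40, adjusted p = 3.22e-09), with 7366 and 7123 in the embryo proper. DD46 (AT1G22015) had 209 and 95.9 in chalazal arrays, against 16311 and 14732 in micropylar arrays (-6.43 ± 0.66, adjusted p = 4.96e-07). Leaving out both poles, the embryo proper was the brightest region for 11 of these 12 genes. The share was 37.3% over all 2302 lower probe sets and 26.8% over all those tested. Chalazal replicate 1 was above replicate 2 for all 12, with medians of 189.8 and 81.7, against 51.8% over all tested probe sets.

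**Figure D2:**
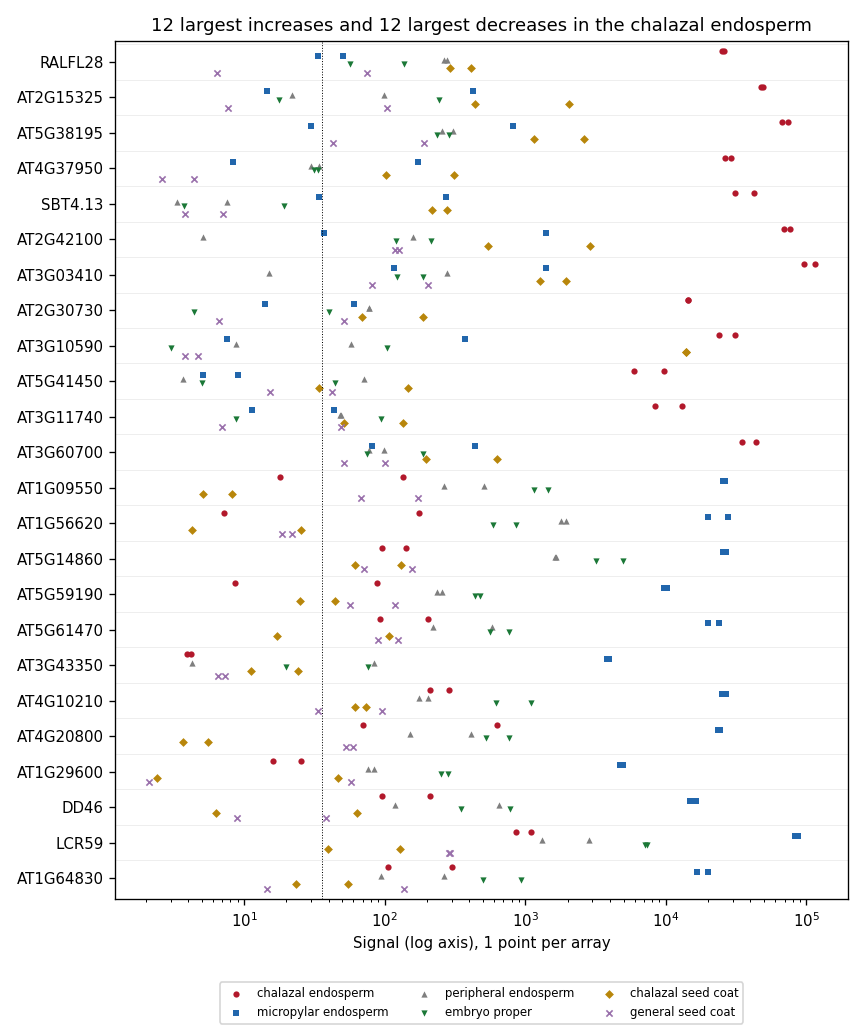
Signal on each array (log axis, 1 point per array) of the 12 genes with the largest increases (top) and the 12 with the largest decreases (bottom) in the chalazal endosperm, in 6 regions. The dotted line is the 35.9 added before taking logs. Chalazal points lie far right of the micropylar ones in the upper 12 genes and far left of them in the lower 12, where green embryo points often come next.

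Type I MADS-box genes were split between the poles. A probe set was named for 21 of the 30 genes of this list, and 17 of them passed the filter. Of these 10 were higher in the chalazal endosperm and 5 lower, and both fits called 9 and 5, against 5.27% and 4.78% of all named genes. The median difference of the 17 was 2.39, against -0.14 over all tested probe sets. AT3G05860 had 13661 and 10674 in chalazal arrays, against 264 and 113 in micropylar arrays (5.84 ± 0.56, adjusted p = 1.94e-07), with intermediate values of 1196 and 2097 in the peripheral endosperm. AGL33 (AT2G26320) had 11373 and 12672 in chalazal arrays, against 197 and 236 in micropylar arrays (5.58 ± 0.66, adjusted p = 2.4e-06). Unlike AT3G05860, AGL33 was near background in the peripheral endosperm, at 9.68 and 37.8. AT4G36590 had 10143 and 9402 in chalazal arrays, against 387 and 820 in micropylar arrays, and AT5G26630 had 10184 and 13954 in chalazal arrays, against 1065 and 1330 in micropylar arrays. Both were called in both fits, with differences of 4.03 ± 0.56 and 3.29 ± 0.52.

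AGL62 (AT5G60440), whose loss is known to make the endosperm form walls too early, had 5852 and 6469 in chalazal arrays, against 790 and 891 in micropylar arrays. It was 2.82 ± 0.49 higher (adjusted p = 0.000215). Its peripheral values of 3678 and 5237 lay between the poles, with a chalazal minus peripheral difference of 0.48 (adjusted p = 0.503) and a micropylar minus peripheral difference of -2.34 (adjusted p = 0.00323). These contrasts share arrays with the one between the poles. AGL91 (4.12), AGL87 (4.50), AGL23 (3.25) and AGL28 (2.28) were also higher in both fits. AGL28 was brightest in the peripheral endosperm, at 3588 and 3684, and lost its call without micropylar replicate 1 (1.70, adjusted p = 0.0524). AGL80, which is needed in the central cell that gives rise to the endosperm, was higher with 14 arrays (2.39, adjusted p = 0.00977), though not with 4 (adjusted p = 0.074) or without chalazal replicate 1 (2.07, adjusted p = 0.0624).

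The members on the micropylar side were low in both other endosperm regions with 1 exception. AGL96 (AT5G06500) had 474 and 86 in chalazal arrays, against 14443 and 13472 in micropylar arrays (-5.81 ± 0.64, adjusted p = 9.94e-07). AGL57 had 182 and 50.6 in chalazal arrays, against 5806 and 5565 in micropylar arrays (-5.38 ± 0.59, adjusted p = 1e-06). AGL48 had 135 and 113 in chalazal arrays, against 5708 and 4682 in micropylar arrays (-5.03 ± 0.57, adjusted p = 1.55e-06). None of these 3 exceeded 917 on a peripheral array. AGL95 (-3.32) and AGL29 (-2.89) completed the 5, and AGL29 is the exception, with 187 and 421 in the peripheral endosperm beside 329 and 194 in the micropylar. Both poles thus held type I genes at a high signal. The groups did not overlap for any gene named in this family, but only 13 of all 4083 called probe sets overlapped, so the calls made this likely. AGL42 (AT5G62165), a MADS-box gene of the other class, was 4.33 ± 0.68 higher in the chalazal endosperm, with 1117 and 856 against 10.2 and 19.4 in the micropylar (adjusted p = 7.6e-05).

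**Figure D3:**
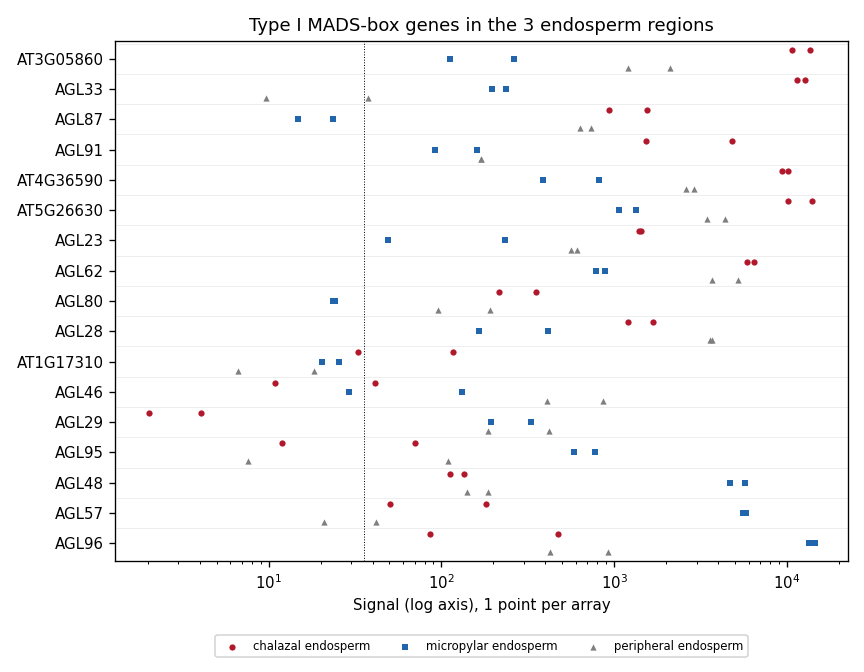
Signal on each array (log axis) of the 17 tested type I MADS-box genes, ordered by the difference between the poles. The 10 genes called higher in the chalazal endosperm (red circles) are at the top, the 5 called lower at the bottom and the 2 uncalled between them, with the peripheral endosperm as grey triangles.

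Secreted peptides and proteins of the cell wall included members on both sides. Of 18 tested genes named as LCR or RALF peptides, 3 were higher and 6 lower, against 10.1% and 12.8% of all named genes. Both fits called 2 and 5, against 5.27% and 4.78% of all named genes. Beside RALFL28, LCR72 was higher (5.30 ± 0.56, adjusted p = 6.45e-07), with 1756 and 2090 in chalazal arrays, against 4.81 and 24.1 in micropylar arrays. RALFL18 was lower (-3.95 ± 0.55, adjusted p = 1.65e-05), with 276 and 280 in chalazal arrays, against 5218 and 4443 in micropylar arrays. LCR24 was lower from a high level, with 8171 and 5154 in chalazal arrays, against 97496 and 65082 in micropylar arrays, a difference of -3.61 ± 0.36 (adjusted p = 3.09e-07). LCR24 also reached 39935 and 36563 in the peripheral endosperm.

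TRICHOME BIREFRINGENCE-LIKE (TBL) genes, a family that acetylates wall polysaccharides, had 1 of 18 tested members higher and 4 lower, all called in both fits, and 13 not called. Of all named genes, 5.27% were higher and 4.78% lower in both fits. Without chalazal replicate 2 the counts were 2 higher and 3 lower. TBL15 had 1270 and 772 in chalazal arrays, against 52313 and 49870 in micropylar arrays (-5.64 ± 0.54, adjusted p = 1.94e-07). TBL42 had 4360 and 4204 in chalazal arrays, against 37647 and 41161 in micropylar arrays (-3.19 ± 0.45, adjusted p = 2.14e-05). TBL43 went the other way, with 11552 and 14701 in chalazal arrays, against 233 and 12.5 in micropylar arrays (6.84 ± 0.75, adjusted p = 1.09e-06). Expansins, which loosen cell walls, and expansin-like proteins had 3 of 14 members higher and 2 lower, against 10.1% and 12.8% of all named genes. Both fits called 1 and 2 expansin genes, against 5.27% and 4.78% of all named genes. EXPA21 was the brightest of the lower ones, with 1666 and 600 in chalazal arrays, against 63009 and 69024 in micropylar arrays (-5.99 ± 0.44, adjusted p = 1.19e-08). EXLA1 was higher, with 5632 and 3719 in chalazal arrays, against 391 and 408 in micropylar arrays (3.41 ± 0.36, adjusted p = 6.25e-07). EXLA1 was brighter still in the general seed coat, at 15823 and 14675. Of 7 tested subtilases 1 was higher and 1 lower, both in both fits. Of all named genes, 10.1% were higher and 12.8% lower, and 5.27% and 4.78% in both fits. With so few genes no trend can be read from the subtilase counts. SBT5.4 was lower where SBT4.13 was higher, with 535 and 42.9 in chalazal arrays, against 6004 and 8582 in micropylar arrays (-5.09 ± 0.65, adjusted p = 6.04e-06). Without chalazal replicate 2 there were 3 higher subtilases, and without chalazal replicate 1 there were 2 lower ones.

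Tetraspanins, small proteins that organise membrane domains, were higher in 4 of 11 tested genes and lower in 2, against 10.1% and 12.8% of all named genes. Both fits called 3 and 0, against 5.27% and 4.78%. The other alternatives gave 1 or 2 lower members, with 1 when micropylar replicate 1 or chalazal replicate 1 was left out. TET4 had 14765 and 19318 in chalazal arrays, against 431 and 14.7 in micropylar arrays (6.78 ± 0.81, adjusted p = 2.77e-06). TET8 had 7229 and 13934 in chalazal arrays, against 284 and 214 in micropylar arrays (5.16 ± 0.48, adjusted p = 1.67e-07). TET9 was 3.82 ± 0.64 higher (adjusted p = 0.000139). TET8 and TET9 were also bright in the chalazal seed coat, between 3490 and 4854, while TET4 did not exceed 143 there.

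Most ATG8 genes rose. ATG8 is a ubiquitin-like protein that is attached to the autophagosome membrane and recruits cargo for degradation in the vacuole. Of 9 tested genes of the family, 6 were higher in the chalazal endosperm and 0 lower, against 10.1% and 12.8% of all named genes. The median difference was 1.96, against -0.14 over all tested probe sets. Both fits called 5 of the 6, against 5.27% of all named genes. ATG8D (AT2G05630) had 8752 and 10658 in chalazal arrays, against 1964 and 1128 in micropylar arrays (2.67 ± 0.44, adjusted p = 0.000137). ATG8G had 1367 and 2082 in chalazal arrays, against 350 and 23.7 in micropylar arrays (3.51 ± 0.60, adjusted p = 0.000192). ATG8B had 671 and 901 in chalazal arrays, against 80.2 and 19.8 in micropylar arrays (3.34 ± 0.50, adjusted p = 4.43e-05). ATG8B and ATG8G were at least as bright in the chalazal seed coat, between 2124 and 2767, whereas ATG8D was brightest in the chalazal endosperm. APG8A (2.27) and ATG8F were the other members called in both fits and were named after their values were seen.

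Of 13 genes with SEC symbols or names of exocyst subunits, 4 were higher and 0 lower, against 10.1% and 12.8% of all named genes, and 2 were higher in both fits, against 5.27%. The higher ones numbered 1 without micropylar replicate 2 and 2 without either chalazal replicate. SEC22, which encodes a SNARE protein of traffic between the endoplasmic reticulum and the Golgi, had 13072 and 15472 in chalazal arrays, against 5926 and 5187 in micropylar arrays (1.35 ± 0.37, adjusted p = 0.0114). Its call was lost without micropylar replicate 2 (1.26, adjusted p = 0.0707) or chalazal replicate 2 (1.23, adjusted p = 0.0646). Of 2 tested RAB genes 1 was lower, also in both fits, against 12.8% and 4.78% of all named genes. With 2 genes no trend can be read from this count. The lower gene, RAB6A, a GTPase of Golgi traffic, had 336 and 294 in chalazal arrays, against 3981 and 2628 in micropylar arrays (-3.22 ± 0.42, adjusted p = 9.36e-06). Among 16 bZIP factors, 2 were higher and 4 lower, against 10.1% and 12.8% of all named genes. Both fits called 2 and 3, against 5.27% and 4.78% of all named genes. Of the 16 differences 8 were above 0 and 8 below, so the family had no common direction. BZIP60, a transcription factor of the unfolded protein response, had 3334 and 3328 in chalazal arrays, against 1344 and 858 in micropylar arrays (adjusted p = 0.0121). The call of BZIP60 was lost without micropylar replicate 2 (1.29, adjusted p = 0.103). The other called members named here lay on the micropylar side. BZIP17, a membrane-bound factor of the same response, was lower, with 148 and 117 in chalazal arrays, against 700 and 1087 in micropylar arrays (-2.44 ± 0.49, adjusted p = 0.000833). bZIP19, a regulator of the response to zinc deficiency, was lower too (-3.75 ± 0.52, adjusted p = 1.7e-05), with 245 and 44.8 in chalazal arrays, against 2278 and 1742 in micropylar arrays.

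Among 10 tested sugar transporters, 0 were higher and 2 lower, both in both fits. Of all named genes, 10.1% were higher and 12.8% lower, and 4.78% were lower in both fits. With 2 called genes no trend can be read from these counts. SWEET8 had 4843 and 6317 in chalazal arrays, against 25270 and 22329 in micropylar arrays (-2.10 ± 0.47, adjusted p = 0.00247). TMT1, which loads sugars into the vacuole, had 154 and 202 in chalazal arrays, against 1052 and 1241 in micropylar arrays (-2.47 ± 0.54, adjusted p = 0.00184). SWEET8 stayed a bright gene in every endosperm region, with 6163 and 6633 in the peripheral endosperm. Of 4 tested auxin genes, YUC11, an enzyme of auxin synthesis, was lower with 14 arrays (-1.99 ± 0.56, adjusted p = 0.0128). With 4 arrays its adjusted p was 0.119, and its call was also lost without micropylar replicate 2 (-1.64, adjusted p = 0.0868) or chalazal replicate 1 (-1.85, adjusted p = 0.0568). Neither of the 2 tested genes of the cytokinin list nor of the 2 of the gibberellin list was called. Of 35 tested UDP-glycosyltransferases 2 were higher and 2 lower, and of 13 cytochromes P450 2 were higher and 2 lower. Both fits called 1 higher and 1 lower in each family. Of all named genes, 10.1% were higher and 12.8% lower, and 5.27% and 4.78% in both fits. UGT74D1, a glucosyltransferase that acts on auxins, was higher, with 5462 and 5564 in chalazal arrays, against 346 and 90.6 in micropylar arrays (4.66 ± 0.61, adjusted p = 9.15e-06). CYP79A2, a cytochrome P450 that makes phenylacetaldoxime from phenylalanine, had 28598 and 30797 in chalazal arrays, against 558 and 23.3 in micropylar arrays (7.31 ± 0.84, adjusted p = 1.68e-06). SK16, a Skp1-like subunit of ubiquitin ligases, had 24105 and 26602 in chalazal arrays, against 1741 and 1682 in micropylar arrays (3.86 ± 0.67, adjusted p = 0.000203).

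Plastid-encoded transcripts were lower in the chalazal than in the micropylar endosperm as a group. All 69 tested genes of the plastid genome had a difference below 0, with a median of -1.02 against -0.14 over all tested probe sets. Of the 69, 35 were called lower and 0 higher, against 12.8% and 10.1% of all named genes. Both fits called 26 lower, against 4.78% of all named genes. With each array divided by its median, 65 of 69 were below 0 and 26 were called. These genes lie on 1 small genome and many are transcribed together, so they are not independent of each other. matK, which encodes an intron maturase, had 4827 and 4530 in chalazal arrays, against 26120 and 20160 in micropylar arrays (-2.29 ± 0.24, adjusted p = 5.72e-07). Its peripheral values of 19536 and 19193 were near the micropylar ones. The means of matK were 9128 in the embryo proper, 5215 in the chalazal and 7515.5 in the general seed coat. Some plastid genes were brighter in the chalazal endosperm than in those regions. Among them rbcL, uncalled and named after its values were seen, had a mean of 31952 in the chalazal endosperm. It had 47721 in the micropylar endosperm, 11384 in the embryo proper, 7877 in the chalazal and 17882 in the general seed coat. Nuclear genes of the photosystems and light harvesting complexes were also lower or uncalled. Of 8 tested, 4 were lower, against 12.8% of all named genes, and 2 were lower in both fits, against 4.78%. PSBW, a subunit of photosystem II, had 1876 and 1307 in chalazal arrays, against 9366 and 8684 in micropylar arrays (-2.50 ± 0.32, adjusted p = 7.93e-06). PSAE-1, a subunit of photosystem I, had 1637 and 1057 in chalazal arrays, against 6160 and 6811 in micropylar arrays (-2.27 ± 0.46, adjusted p = 0.000995).

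Few genes of the cell cycle could be read. Of 4 tested ones 2 were lower and 0 higher, with 1 lower in both fits, and of 2 cytokinesis genes 1 was lower. Of all named genes, 12.8% were lower and 10.1% higher, and 4.78% were lower in both fits. With so few genes no trend can be read from these counts. Of 14 tested genes of replication and repair, a family formed from gene symbols, 0 were higher and 1 lower, with 0 in both fits. Of 5 histone genes and of 7 tubulin and actin genes 0 were called. AUR1, a kinase of mitosis, had 18.9 and 17.2 in chalazal arrays, against 612 and 272 in micropylar arrays (-3.05 ± 0.63, adjusted p = 0.00124). AUR1 was also bright in the peripheral endosperm (690 and 557) and in the embryo proper (1364 and 848). KINESIN-12B, a motor of the phragmoplast that builds new walls, had 178 and 122 in chalazal arrays, against 744 and 788 in micropylar arrays (-2.13 ± 0.51, adjusted p = 0.00393), and its adjusted p with 4 arrays was 0.059. Of 4 tested endosperm regulators, IKU1, which controls endosperm size, was higher with 14 arrays (1.88, adjusted p = 0.0251). Its arrays gave 1005 and 2548 in the chalazal, against 775 and 209 in the micropylar endosperm. The call of IKU1 was lost with 4 arrays (adjusted p = 0.13), without micropylar replicate 2 (1.02, adjusted p = 0.294) and without chalazal replicate 2 (1.23, adjusted p = 0.235). The 2 tested genes for signals between endosperm and embryo and the 1 tested gene of the DNA methylation list were not called.

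**Figure D4:**
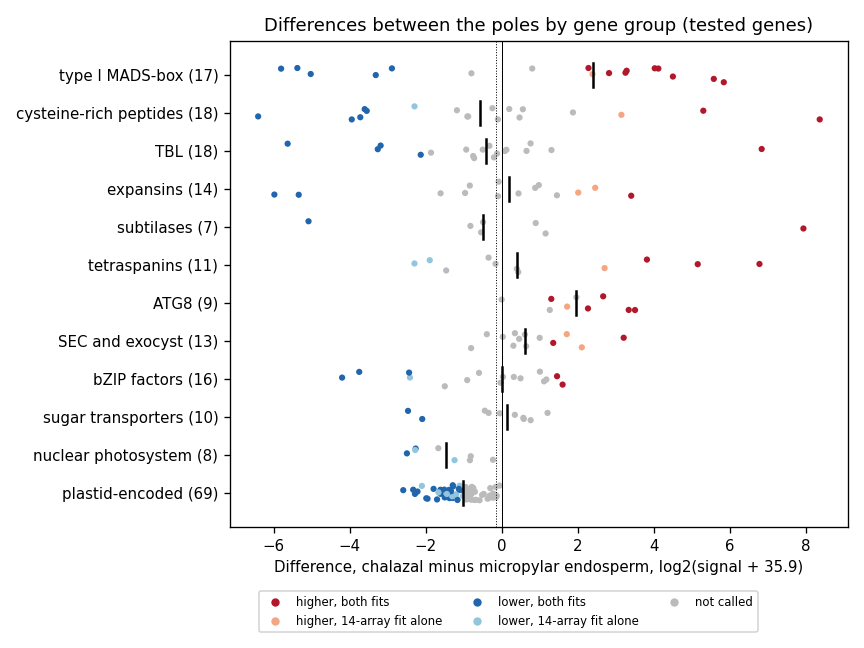
Difference between the poles (chalazal minus micropylar, log2 scale) for each tested gene of 12 groups, with the number tested in brackets, a black bar at the median and a dotted line at the median of all tested probe sets (-0.14). Type I MADS-box genes spread to both sides, ATG8 genes lie mostly to the right and all 69 plastid-encoded genes lie left of 0.

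The called probe sets also differed in where else they were bright. Among the 4 regions other than the poles, the chalazal seed coat was the brightest for 758 of the 1781 probe sets higher in the chalazal endosperm (42.6%, against 27.2% of all tested). For the 2302 lower ones the embryo proper led for 858 (37.3%, against 26.8%) and the peripheral endosperm for 784 (34.1%, against 24.9%). The median log2 level of the higher probe sets was 10.38 in the chalazal and 7.31 in the micropylar endosperm, with 7.93 in the peripheral endosperm. That of the lower ones was 7.59 in the chalazal and 10.02 in the micropylar endosperm, with 9.49 in the peripheral endosperm. Over all tested probe sets the peripheral median was 7.98. The seed coat arrays entered neither side of the contrast between the poles. Between the chalazal and the general seed coat, 201 of the 1781 were higher in the chalazal seed coat (11.3%, against 4.18% of all tested) and 64 lower (3.59%, against 4.22%). Of the 2302, 29 were higher in the chalazal seed coat (1.26%) and 148 lower (6.43%). The part of seed coat RNA in these shares was not tested, and the sums of seed coat markers in the poles are given above.

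**Figure D5:**
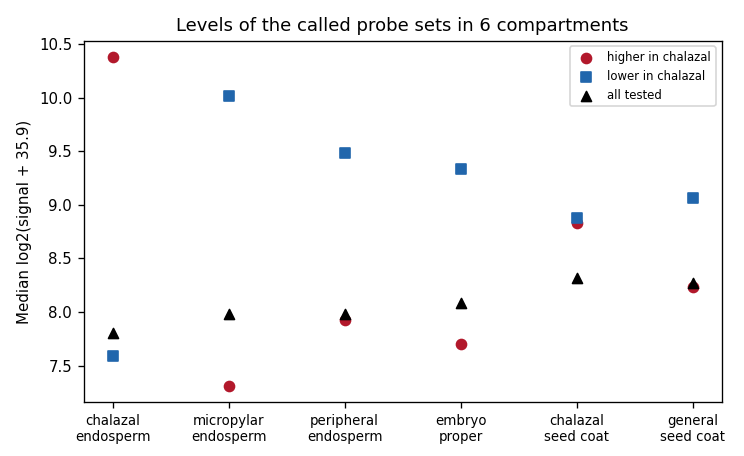
Median log2(signal + 35.9) in 6 regions of the 1781 probe sets higher in the chalazal endosperm (red), the 2302 lower (blue) and all 17336 tested (black). Values in the poles follow from the choice of probe sets, and outside them the red points are highest in the chalazal seed coat and the blue points in the peripheral endosperm and the embryo proper.

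Some called genes were neighbours on the chromosome. Runs of at least 3 consecutive genes called the same way numbered 5 among the higher and 3 among the lower genes. Consecutive means next to each other in the position order of protein-coding genes, and an untested gene ended a run. Of all named genes, 10.1% were called higher and 12.8% lower, and the number of runs expected from these shares was not tested. The longest was 6 genes on chromosome 4, from AT4G29600 to AT4G29650, all higher with 14 arrays, and these loci were named after their values were seen. The second, AT4G29610, was 1.70 higher (adjusted p = 0.0458) and was not called with 4 arrays (adjusted p = 0.167), while the other 5 were called in both fits with differences of 3.33 to 5.43. AT4G29600 had 1286 and 2114 in chalazal arrays, against 14 and 220 in micropylar arrays (3.90 ± 0.70, adjusted p = 0.000325). AT4G29650 had 3954 and 2286 in chalazal arrays, against 221 and 17.6 in micropylar arrays (4.70 ± 0.69, adjusted p = 3.08e-05). Both were also bright in the chalazal seed coat, with 625 and 1238 for AT4G29600 and 3084 and 3904 for AT4G29650. Cross-hybridization between probe sets of neighbouring genes was not tested.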

How the data were processed

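The authors deposited linear intensity values of ATH1 arrays, 1 per probe set and array. GCOS is the tool named in the submitters' processing notes, and its algorithm and version are not given in the sources used here. In the deposited files scaling was visible, since the mean without the lowest and highest 2% was 500.04 to 500.07 on every array. Array medians ran from 110.4 to 179, and detection calls were not used. The 64 control probe sets were left out, which left 22746. The 25th percentile of all values, 35.8914, was added before taking log2. The filter asked that in at least 1 of 7 groups both arrays exceeded their own 40th percentile.

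Group means were fitted with limma 3.58.1 (lmFit, eBayes with a trend) in R 4.3.3 over 14 arrays, and P-values were two-sided and adjusted by the Benjamini-Hochberg method over 17336 probe sets. The same fit on the 4 pole arrays gave the second set of calls, and 13 alternatives were run. The number of arrays limits precision. By the platform annotation 13513 probe sets had 1 gene, 503 had several and 8730 had none. Of the first, 13436 matched RefSeq's TAIR10.1 table. A gene with several probe sets took the brightest. Opposite calls occurred in 0 of the 116 genes for which more than 1 probe set was tested. A probe set was named for 57 of the 275 listed genes, and 47 passed the filter. Named genes were the 12 largest increases and decreases called in both fits without overlap and, per list or family, the called members with the smallest adjusted p. The probe sets, 14 lists and 48 families formed from gene symbols were chosen with earlier results of these data known. Figures used matplotlib 3.10.9 in Python 3.11.15. The fit was also run on simulated data with independent normal noise, and no statement here rests on that run.

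Replicate numbers were shared between groups, and deviations of same-numbered arrays from their group means correlated at -0.0279 to 0.043 over 21 pairs of groups, so the numbers did not pair the arrays.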

Additional observations from a re-analysis of the deposited data

How the results depend on the processing

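All alternatives kept the direction of every one of the 62 genes named with a called difference, and 53 of them kept their call in all 13. The other 9 were AGL28, AGL80, AGL95, YUC11, KINESIN-12B, IKU1, DFR, BZIP60 and SEC22, and AGL95 lost it only with values floored at 1 (-4.54, adjusted p = 0.0761). No probe set called with 14 arrays was called the other way under any alternative. The counts fell most where the poles were given their own spread. The fit on 4 arrays called 939 probe sets higher and 909 lower, and array weights with a variance per group called 1073 higher and 1301 lower, against 1781 and 2302. The fit on 4 arrays also had fewer residual degrees of freedom (2, against 7), and its fall in counts was not split between this and the spread. Leaving out 1 pole array gave 1449 to 1556 higher and 1702 to 2448 lower. The replicate block gave 1761 higher and 2304 lower, and moved neither count by over 1.5 times. Dividing each array by its median moved the median of all tested probe sets to 0.01, against -0.14, with 2007 higher and 1839 lower, so that 52.2% of calls were higher, against 43.6%. Quantile normalization, other pseudocounts and other filters gave 1394 to 1910 higher and 1949 to 2521 lower. The 2 arrays a group and the loose replicates of the poles limit which differences could be called, and 7061 tested probe sets have no gene name.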
